A study of Mus musculus with 6 samples.

Results

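The 9 genes described here, Wwox, Dynlrb2, Cdyl2, Cenpn, Atmin, Gcsh, Cmip, Plcg2 and Hsd17b2, lie beside Maf on mouse chromosome 8. They were measured by 16 of the 55681 non-control probes of the array, taken as every probe that carries one of these names. Of the 16 probes, 14 from 8 genes passed the filter on dim probes and were tested among 28271 probes. Dynlrb2 and 1 of the 5 Wwox probes did not pass. In the RefSeq order of GRCm38.p6, used for names and order only, the stretch from Wwox to Hsd17b2 holds 16 protein-coding genes. Besides the 9 neighbours and Maf these include Cmc2, 1700030J22Rik, Pkd1l2, Bco1 and Sdr42e1.

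The c-Maf KO samples were macrophage cultures whose source is labelled as c-Maf KO fetal liver, and the WT samples were the same kind of culture labelled as from WT fetal liver, with 3 samples of each genotype. Both were grown in M-CSF at 10 ng/ml, given daily from day 4, and are named polarized M2-like BMM in the labels, whose tissue entry is liver. The design text names fetal liver chimeric mice of either genotype as the source. The labels do not give the deleted part of Maf, the strain, the age, the host cells that remained or whether replicates were separate mice, so a p-value here reflects only sample-to-sample spread, part of which may be technical. RNA was hybridised to 1-colour Agilent arrays, and 5 arrays (2 c-Maf KO and 3 WT) had scanner signals. The third c-Maf KO sample, replicate 1, entered through the authors' value table alone.

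Maf encodes c-Maf, a leucine zipper transcription factor of differentiated macrophages. Genes on 1 chromosome can share enhancers and chromatin domains across long distances, so the genes around a deleted locus are commonly looked at beside the deletion itself. The neighbours of Maf are otherwise a mixed group in function. Wwox is an oxidoreductase with WW domains and spans a common fragile site in human, next to MAF. Dynlrb2 is a light chain of the motor protein dynein, known from ciliated cells. Cdyl2 carries a chromodomain, which binds methylated histone H3. Cenpn is a kinetochore protein that recognises centromeric nucleosomes. Atmin is a zinc finger partner of the DNA damage kinase ATM. Gcsh is the lipoylated H protein of the mitochondrial glycine cleavage system. Cmip, c-Maf-inducing protein, is an adaptor named from human T cells. Plcg2, phospholipase C gamma 2, makes inositol trisphosphate and diacylglycerol below immune receptors in macrophages and B cells. Hsd17b2 oxidises oestradiol and testosterone to less active steroids.

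The probes are 60 bases long, and their positions are those of the files (mm9). Probes of a gene are numbered here by position on chromosome 8. A stretch of 30 bases is shown for those the results turn on, beside the position of the whole probe. Capitals mark the letters of the common polyadenylation signal or its main variant where the probe holds them, to show how probes of 1 gene differ.
Wwox probe 2, chr8:117236052-117236111, + strand: gaacatgatgtactcagccatccatcgcaa
Wwox probe 3, chr8:117242446-117242505, + strand: gcgttctttcctAATAAAtttttcattcta
Wwox probe 5, chr8:117876353-117876412, + strand: agattataacgagtgcattttacattttgc
Maf main probe, chr8:118227736-118227795, - strand: actgtattgaaaaccaaagtATTAAAaggg
Cdyl2, chr8:119098327-119098386, - strand: ctgataatttatgtgtattatatgtaaagc
Atmin, chr8:119484285-119484344, + strand: ataaatttggtgATTAAAgagaagctagaa
Gcsh probe 1, chr8:119505787-119505846, - strand: gtgactgctagttttagaagggttgatttt
Gcsh probe 2, chr8:119505872-119505931, - strand: cactgcgaaacaAATAAAacattcatcctc
Gcsh probe 3, chr8:119505978-119506037, - strand: ttctcattgggaatgcaaggaagtgttgta
Cmip probe 2, chr8:119985345-119985404, + strand: ctttcaggcaaaAATAAActgtaagtgact
Plcg2, chr8:120158980-120159037, + strand: tcagcctcattgAATAAAgacaacagtttc
Hsd17b2, chr8:120282508-120282567, + strand: acatttgggataaaatggagaaggaaatcc

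The motifs searched were AATAAA and ATTAAA, on the strand the files list for each probe and not on the other. AATAAA was found in 4 of the 16 neighbour probes and ATTAAA in 1, a share of 31.2% for either motif. The share was 13.7% over all 55681 probes and 16.2% over the 28271 tested. These matches describe the probe sequences and carry no test.

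Maf, the targeted gene, checks the labels. The value table holds each sample's ratio to the probe's median over the 6 samples, and log2 of it is given throughout as the log2 ratio. With samples always given in the order of replicates 1 to 3, the main Maf probe stood at -2.22, -2.36 and -1.92 in c-Maf KO, against 1.92, 1.98 and 2.03 in WT. Maf was thus lower in c-Maf KO, with a difference of -4.14 on the log2 scale (SE 0.12, limma adjusted p = 0.000826). CB193388, a transcript probe 2.41 kb from the main Maf probe on the same strand, had log2 ratios in c-Maf KO of -3.69, -3.53 and -2.93, against 2.97, 2.93 and 2.99 in WT (limma adjusted p = 0.000826). A further Maf probe stood at -1.74, -2.84 and -3.04 in c-Maf KO, against 1.83, 1.74 and 1.83 in WT (limma adjusted p = 0.0522). Neither was well above background on either c-Maf KO array, so both passed the filter through WT and have only a bound: the signal was at least 24.9-fold higher in WT for CB193388 and at least 6.69-fold higher in WT for the further Maf probe. All 3 probes were low in every c-Maf KO sample, including replicate 1, and high in every WT sample.

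No neighbour probe passed the threshold, a Benjamini-Hochberg adjusted p under 0.05 over all probes tested. In the limma fit of the 6 samples 0 of 14 neighbour probes were called, beside 6 of all 28271 probes, a share of 0.0212% (0.0106% higher and 0.0106% lower in c-Maf KO). The lowest adjusted p among the neighbours was 0.256, for Hsd17b2. In the limma fit of the 5 scanner arrays 0 of 14 were called as well, beside 0.0248% of all probes. At an unadjusted p under 0.05 there were 3 of 14 neighbour probes beside 12.1% of all probes; these were Gcsh probe 3, higher in c-Maf KO, and Wwox probe 3 and Hsd17b2, lower in c-Maf KO. Hsd17b2 passed the filter through the WT arrays alone, which favours a lower value in c-Maf KO, so its place in these counts is no support for a shift. The groups did not overlap in 3 of 14 neighbour probes, 2 higher and 1 lower in c-Maf KO, beside 19.4% of all probes (10.2% higher and 9.26% lower). The 2 higher ones were Gcsh probes 2 and 3, which lie 46 bases apart and are assigned to the same transcript. The lower one was Hsd17b2.

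The differences of the neighbours were small beside that of Maf. Apart from Hsd17b2, they ranged from -0.45 for Wwox probe 3 to 0.36 for Wwox probe 2. Hsd17b2 passed the filter through the WT arrays alone, so its -0.48 is a fitted value and no support for a shift. It is included in all counts and medians of this paragraph. There were 4 positive and 10 negative values, with a median of -0.082. The median over all probes was -0.0038. The median size without its sign was 0.14 for the neighbours and 0.10 over all probes. The 95% interval of the difference lay within 1 log2 unit of 0 for 14 of 14 neighbour probes, beside 91.3% of all probes. It lay within 0.5 log2 units for 9 of 14, beside 67.9%.

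**Figure D1:**
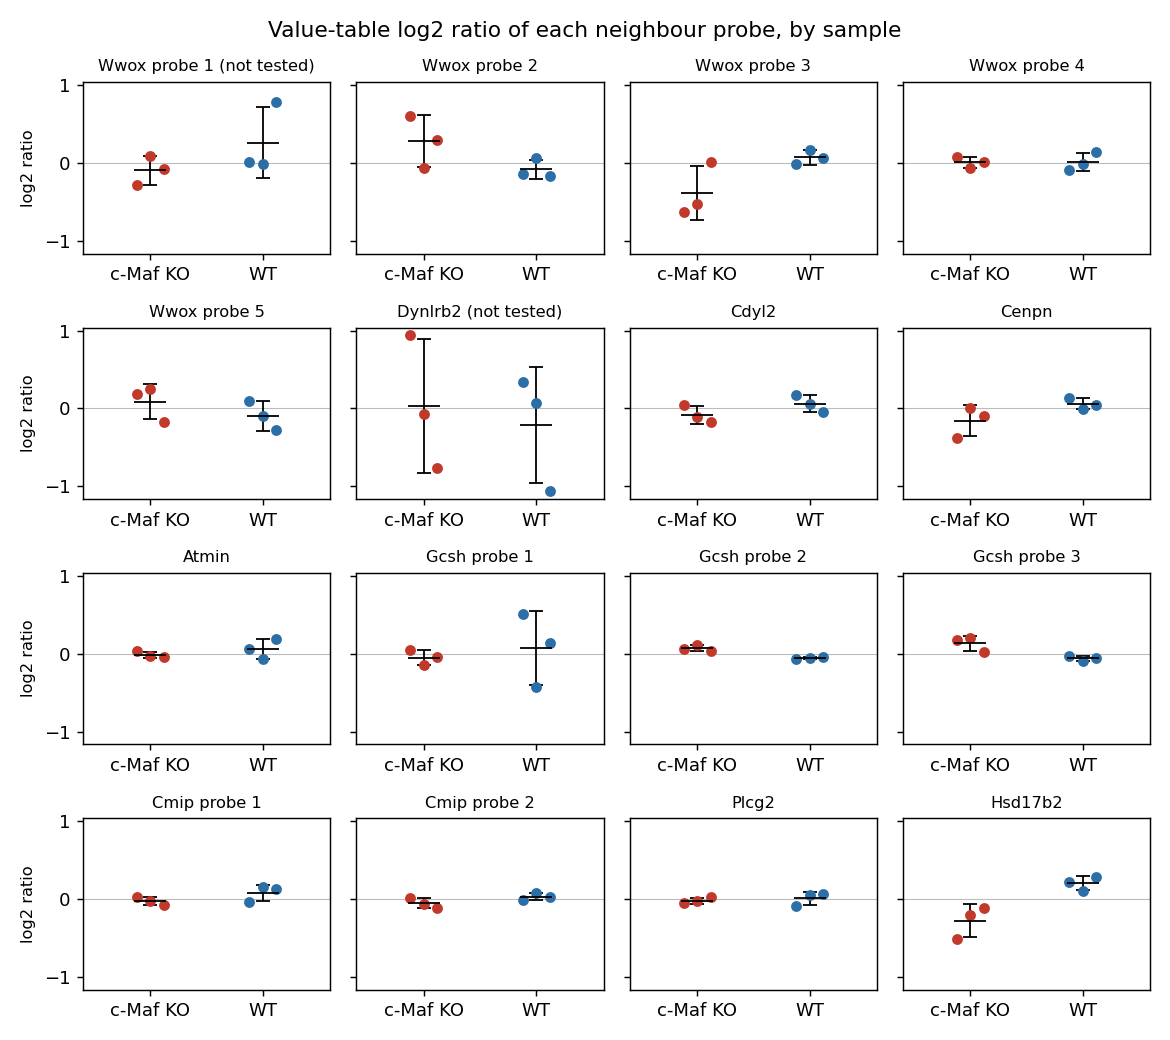
Log2 ratio from the value table (vertical axis) in each sample for the 16 neighbour probes, with c-Maf KO left of WT (3 samples each); points are samples and black bars the mean and SD. The groups do not overlap in Gcsh probes 2 and 3 and in Hsd17b2, and Dynlrb2 and Wwox probe 1 were not tested.

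Wwox is the nearest protein-coding neighbour, and its probes nearest to Maf lay 0.351 and 0.352 Mb from the main Maf probe. The nearest, Wwox probe 5, had log2 ratios in c-Maf KO of 0.19, 0.25 and -0.17, against 0.098, -0.098 and -0.28 in WT. The difference was 0.18 (SE 0.15, 95% interval -0.18 to 0.55, limma adjusted p = 0.645). Replicates 1 and 2 of c-Maf KO lay above every WT value, and replicate 3 lay within the WT range. Wwox probe 4 had ratios of 0.075, -0.059 and 0.011 in c-Maf KO, against -0.083, -0.011 and 0.14 in WT, so the groups lay over each other. Its difference was -0.0076 (SE 0.082, 95% interval -0.21 to 0.19, limma adjusted p = 0.978).

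Farther along Wwox, probes 2 and 3 lay 0.992 and 0.985 Mb from Maf with a gap of 6334 bases between them, and their differences had opposite signs. Wwox probe 2 had log2 ratios in c-Maf KO of 0.60, -0.064 and 0.30, against -0.14, 0.064 and -0.16 in WT (difference 0.36, SE 0.18, limma adjusted p = 0.478; 0.20 without c-Maf KO replicate 1). Wwox probe 3 had ratios of -0.63, -0.53 and 0.017 in c-Maf KO, against -0.017, 0.17 and 0.068 in WT (difference -0.45, SE 0.18, 95% interval -0.89 to -0.020, limma adjusted p = 0.399). In both probes c-Maf KO replicate 1 stood farthest from WT, and 1 c-Maf KO sample lay within the WT range. Wwox probe 2 is assigned in the files to the RefSeq transcript that probes 4 and 5 also carry, while probe 3, which holds AATAAA, is assigned to an Ensembl transcript of its own.

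Dynlrb2, 0.812 Mb from Maf, was not well above background on any of the 5 arrays. Its log2 ratios were 0.94, -0.068 and -0.77 in c-Maf KO, against 0.34, 0.068 and -1.06 in WT, a spread within each genotype wider than the gap between their means. Wwox probe 1, 1.23 Mb from Maf, was likewise not well above background on any array, with ratios of -0.28, 0.086 and -0.077 in c-Maf KO, against 0.015, -0.015 and 0.79 in WT. No difference was tested for either.

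Cdyl2, 0.871 Mb from Maf, had log2 ratios in c-Maf KO of 0.043, -0.10 and -0.18, against 0.17, 0.056 and -0.043 in WT. The 2 ranges overlapped, and the difference was -0.14 (SE 0.090, 95% interval -0.36 to 0.079, limma adjusted p = 0.569). On the scanner arrays it was -0.21. Atmin, 1.26 Mb away, had ratios of 0.032, -0.032 and -0.037 in c-Maf KO, all inside the WT values of 0.068, -0.061 and 0.19. Its difference was -0.077 (SE 0.081, 95% interval -0.27 to 0.12, limma adjusted p = 0.728).

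Cenpn, 1.24 Mb from Maf, had log2 ratios in c-Maf KO of -0.38, 0.0041 and -0.098, against 0.13, -0.0041 and 0.044 in WT. The difference was -0.22 (SE 0.11, 95% interval -0.49 to 0.059, limma adjusted p = 0.499), and c-Maf KO replicate 1 was the lowest sample. Without that sample, on the scanner arrays, the difference was -0.11. Of the proliferation markers 8 of 8 passed the filter, and the mean of their log2 ratios was -0.29, -0.0038 and 0.023 in c-Maf KO, against 0.093, -0.11 and 0.097 in WT. Here too c-Maf KO replicate 1 was the lowest sample, and the other c-Maf KO samples lay within the WT range. None of the 8 was called, and their part in the Cenpn value was not tested.

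Gcsh was measured by 3 probes whose centres span 191 bases, 1.28 Mb from Maf, and in probes 2 and 3 the c-Maf KO samples all lay above the WT samples. Gcsh probe 3 had log2 ratios in c-Maf KO of 0.18, 0.20 and 0.026, against -0.026, -0.087 and -0.056 in WT. The groups did not overlap, and the difference was 0.19 (SE 0.071, 95% interval 0.019 to 0.36, limma adjusted p = 0.375). Gcsh probe 2 had ratios of 0.065, 0.12 and 0.043 in c-Maf KO, against -0.060, -0.053 and -0.043 in WT, again without overlap. Its difference was 0.13 (SE 0.056, 95% interval -0.0088 to 0.26, limma adjusted p = 0.437).

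Gcsh probe 1 was well above background on only 1 c-Maf KO and 2 WT arrays. It had ratios of 0.045, -0.14 and -0.045 in c-Maf KO, against 0.51, -0.43 and 0.14 in WT (difference -0.12, SE 0.23, limma adjusted p = 0.861). A probe 192 bases from Gcsh probe 3 on the same strand carries the name LOC102641654 and was singled out after its values were seen. It had ratios of 0.052, 0.15 and 0.16 in c-Maf KO, against -0.085, -0.052 and -0.13 in WT (difference 0.21, SE 0.062, limma adjusted p = 0.300). Whether it reads Gcsh transcripts was not tested, so it is uncertain whether its values add to those of Gcsh.

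Cmip carried 2 probes 1.76 Mb from Maf with close differences. Cmip probe 1 had log2 ratios in c-Maf KO of 0.026, -0.026 and -0.070, against -0.034, 0.15 and 0.13 in WT (difference -0.10, SE 0.074, 95% interval -0.29 to 0.077, limma adjusted p = 0.603). Cmip probe 2 had ratios of 0.015, -0.060 and -0.11 in c-Maf KO, against -0.015, 0.082 and 0.032 in WT (difference -0.087, SE 0.065, 95% interval -0.25 to 0.072, limma adjusted p = 0.619). In both probes WT replicate 1 lay inside the c-Maf KO range and the other WT samples lay above it. Both probes were well above background on all 5 arrays.

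Plcg2, 1.93 Mb from Maf, had the narrowest gap between genotypes among the single-probe neighbours tested. Its log2 ratios were -0.053, -0.024 and 0.024 in c-Maf KO, against -0.081, 0.054 and 0.066 in WT. The difference was -0.031 (SE 0.067, 95% interval -0.20 to 0.13, limma adjusted p = 0.880). On the 5 arrays its log2 signal stood 5.05 to 5.18 above the 75th percentile.

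Hsd17b2, the farthest neighbour at 2.05 Mb, was measured at the edge of detection. Its log2 ratios were -0.52, -0.21 and -0.11 in c-Maf KO, against 0.22, 0.11 and 0.28 in WT. Every c-Maf KO sample lay below every WT sample, with a fitted difference of -0.48 (SE 0.12, limma adjusted p = 0.256). Scaled to the 75th percentile of the array, its log2 signal was -4.40 ± 0.082 in c-Maf KO (SD, n = 2) and -4.04 ± 0.080 in WT (SD, n = 3). It was well above background on 3 of 3 WT arrays and on 0 of 2 c-Maf KO arrays, so only a bound can be given: the signal was at least 1.17-fold higher in WT. The bound carries no test. The scanner fit gave a fitted difference of -0.36 (limma adjusted p = 0.360), which is not a measured size.

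**Figure D2:**
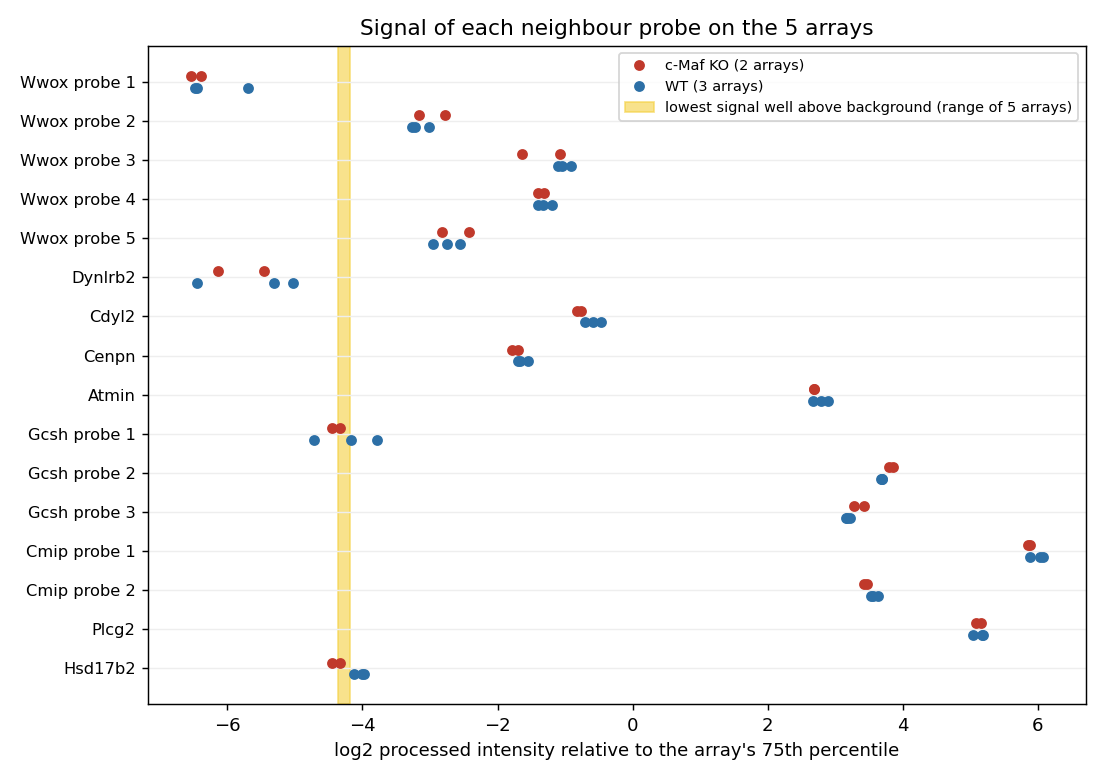
Processed intensity of each neighbour probe (log2 relative to the array's 75th percentile, horizontal axis) on 2 c-Maf KO and 3 WT arrays, with the range of the lowest signal called well above background shaded. Hsd17b2 and Gcsh probe 1 sit at the shaded range, and Dynlrb2 and Wwox probe 1 lie below it.

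The difference did not track distance from Maf as a simple trend. Across the 14 tested neighbour probes, the size of the difference and the distance from the main Maf probe had a Spearman correlation of -0.077 and a Pearson correlation of 0.099. Across 143 other tested probes within 5 Mb the values were 0.073 and 0.11. These are descriptions, since probes share arrays and in part genes, and Wwox gives 4 of the 14 points. The farthest point, Hsd17b2, passed the filter through the WT arrays alone, so its size is a fitted value and not a measured one. The correlations were not computed without it.

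**Figure D3:**
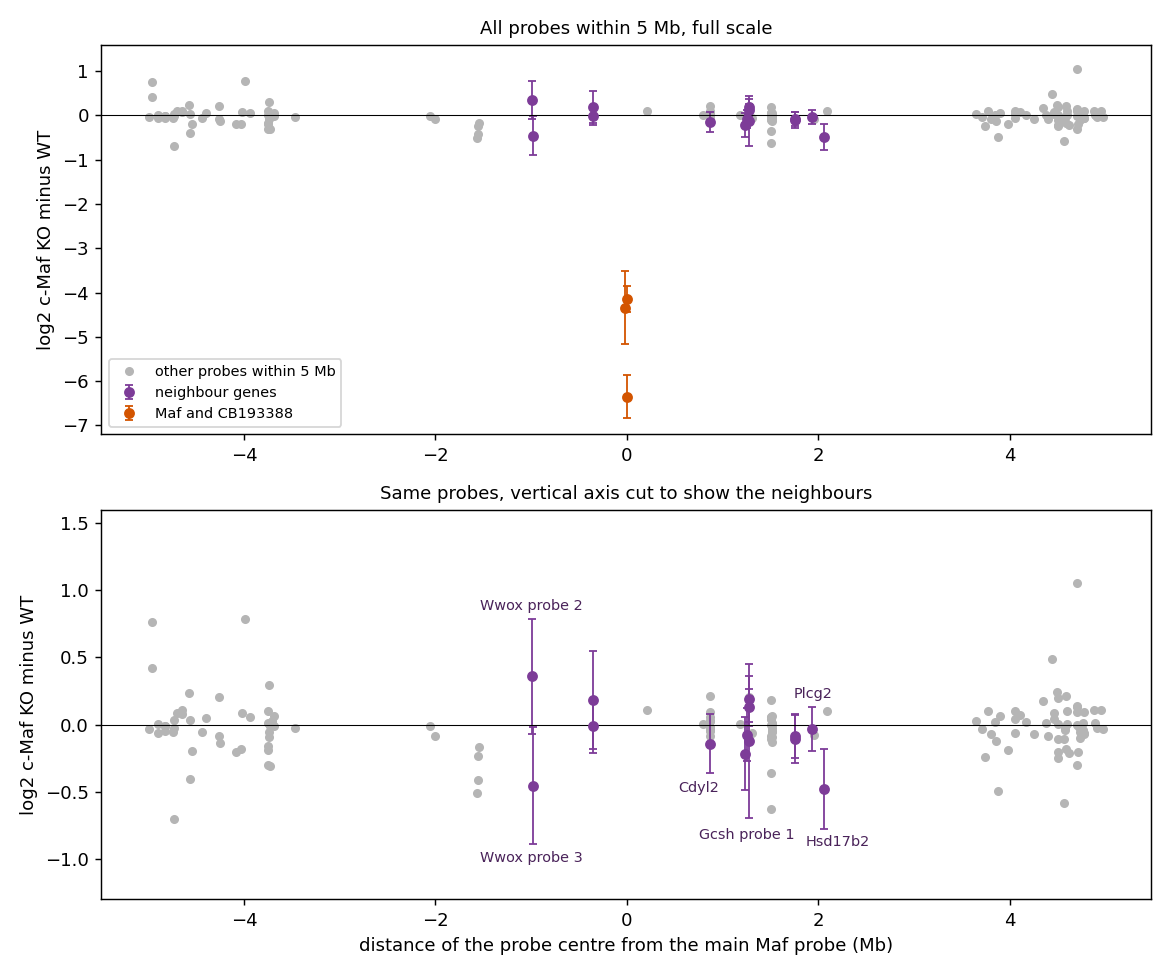
Log2 difference, c-Maf KO minus WT (vertical axis), against distance from the main Maf probe in Mb, for the neighbour probes and the Maf and CB193388 probes (95% intervals) and the other tested probes within 5 Mb (grey, no intervals). The lower panel repeats the upper one with the vertical axis cut; the main Maf probe lies at -4.14 in the upper panel, and the neighbours other than Hsd17b2 between -0.45 and 0.36. CB193388, the further Maf probe and Hsd17b2 were not well above background on either c-Maf KO array, so their points are fitted values and not measured sizes.

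The other 143 probes within 5 Mb, from 90 genes or unnamed features, gave 0 calls in limma and 13 unadjusted p-values under 0.05, a share of 9.09%. Their median difference was -0.0075. Of the nearest named genes before Maf, Nudt7, a peroxisomal coenzyme A hydrolase 1.56 Mb away, was the one with separate groups. The probe of larger difference had log2 ratios in c-Maf KO of -0.25, -0.21 and -0.32, against 0.21, 0.26 and 0.29 in WT. The difference was -0.51 (SE 0.062, 95% interval -0.66 to -0.36, limma adjusted p = 0.131), and it was called with the trend and robust options of eBayes (adjusted p = 0.0334). The second Nudt7 probe differed by -0.24 (SE 0.058, limma adjusted p = 0.253), again with no overlap.

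The next named genes before Maf, Adamts18 and Mon1b, differed by -0.081 (limma adjusted p = 0.802) and -0.0073 (limma adjusted p = 0.972). After Maf, the nearest named genes that are not among the 9 included Cmc2 at 0.0074 (limma adjusted p = 0.982) and Pkd1l2 at -0.062 (limma adjusted p = 0.815). Both lie beside Cenpn, Atmin and Gcsh, and their groups overlapped.

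Near the edge of the 5 Mb window, Bcar1 (3.99 Mb) had log2 ratios in c-Maf KO of 0.013, 0.015 and 0.30, against -0.013, -1.04 and -0.97 in WT (difference 0.78, limma adjusted p = 0.372). Il34 (4.96 Mb), a ligand of the M-CSF receptor, had ratios of 0.11, 0.15 and 0.55 in c-Maf KO, against -0.11, -0.73 and -0.63 in WT (difference 0.76, limma adjusted p = 0.268). In both genes WT replicate 1 lay nearest to c-Maf KO. The stromal marker list had the same order of samples within WT, with WT replicate 1 the highest. At each gene's brightest tested probe, 9 of 9 genes had positive differences with none called. Their mean log2 ratio ranged from 0.12 to 0.54 in c-Maf KO and from -0.98 to -0.14 in WT. Over all 11 tested probes of the list, 10 were positive and 1 negative (-0.46). An unadjusted limma p under 0.05 was reached by 10 of the 11, 9 higher and 1 lower, beside 12.1% of all probes. The groups did not overlap in 10 of the 11, beside 19.4%. The part of this list in the Bcar1 and Il34 values was not tested.

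In such bulk cultures fewer cells of a type and less RNA per cell cannot be told apart. One Ddx19a probe (4.73 Mb) differed by -0.70 (limma adjusted p = 0.601) through c-Maf KO replicate 1 at -1.88, and by -0.098 without that sample. The second Ddx19a probe differed by 0.032. 6430548M08Rik (4.44 Mb) differed by 0.49 at 1 probe (limma adjusted p = 0.529) and by 0.084 and 0.039 at its other probes. None of these genes was called.

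Partner lists were measured to set the neighbours beside related genes. They hold genes that act with a neighbour, relatives from its family, or genes of its general class. Over all 7 lists, 65 genes had 87 tested probes, of which 0 were called in limma and 6 had an unadjusted p under 0.05 (6.90%). Their median difference was 0.0074.

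Of 14 genes of the Plcg2 signalling list, 7 had positive and 7 negative differences. The list runs from the kinases Syk and Btk to the inositol trisphosphate receptors and includes Plcg1, a relative of Plcg2. The brightest were Blnk, an adaptor of Plcg2, at -0.100 (SE 0.071, limma adjusted p = 0.604) and Prkcd, a kinase activated by diacylglycerol, at 0.049 (SE 0.085, limma adjusted p = 0.847). Of the 7 measured genes of glycine cleavage and lipoylation, 4 were positive and 3 negative, with Dld, the shared dehydrogenase subunit, at 0.12 and Lias, the lipoyl synthase, at 0.085. Amt was not above the filter.

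Of 8 measured genes of the 17-beta-hydroxysteroid dehydrogenase group of Hsd17b2, 3 were positive and 5 negative, and the brightest, Hsd17b4 and Hsd17b11, differed by -0.0088 and -0.010. Hsd17b1, Hsd17b3 and Hsd17b6 were not above the filter. Of 8 measured dynein chain genes, 6 were positive and 2 negative. Dynlrb1, the close relative of Dynlrb2, differed by 0.033 (SE 0.068, limma adjusted p = 0.872) and Dync1i2 by -0.013.

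Of 8 genes of repressive chromatin set beside Cdyl2, 4 were positive and 4 negative, with the histone H3 methyltransferases Ehmt1 at 0.25 (SE 0.19) and Ehmt2 at -0.12 (SE 0.060). Of 13 centromere genes set beside Cenpn, 5 were positive and 8 negative, with Cenpa, the centromeric histone, at 0.042 and Cenpo at -0.017. Of 7 ATM signalling genes set beside Atmin, 3 were positive and 4 negative, with Rad50 at -0.094 and Mdc1 at -0.16. The lowest limma adjusted p over all 7 lists was 0.277.

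**Figure D4:**
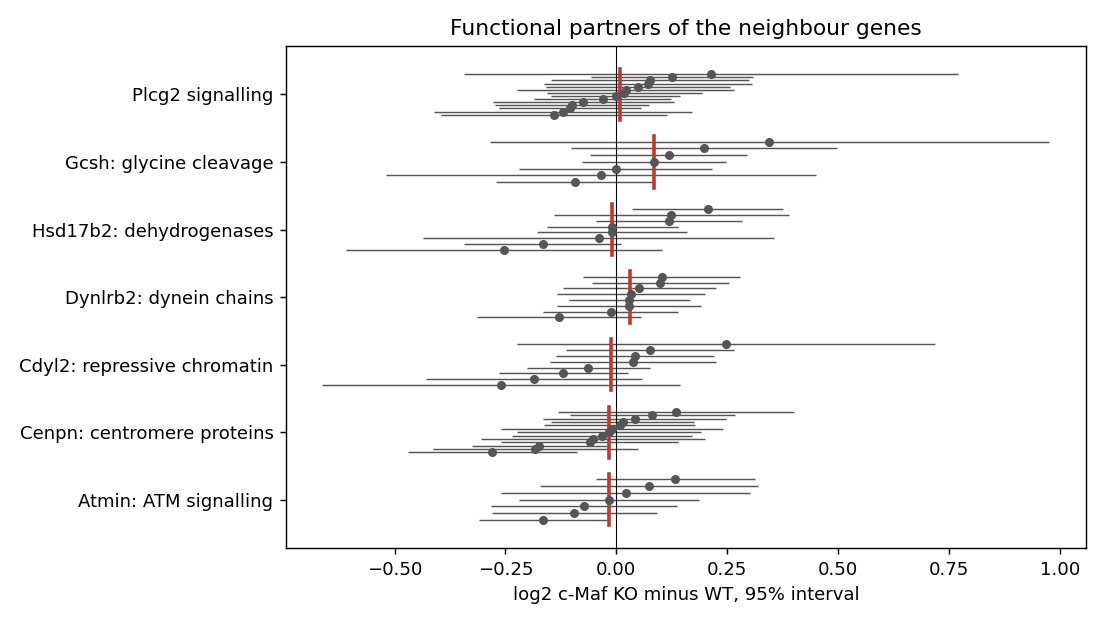
Log2 difference, c-Maf KO minus WT (horizontal axis), of the brightest tested probe of each gene of the partner lists with its 95% interval. Genes are grouped by the neighbour their list is set beside, and red bars are list medians. The medians lie between -0.017 and 0.085, and single genes between -0.28 and 0.35.

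Over the 6 samples, the genes whose log2 ratios were most like those of Wwox probe 3, the Wwox probe with the highest mean signal, were Ftx, Psg21 and C230057M02Rik, each with a Pearson correlation of 0.99. Among the 14023 genes compared, 51 had a correlation above 0.95 with this probe, and the correlation of the main Maf probe with it was 0.77. For Plcg2 the most alike included Snrnp48 and Simc1, each at 0.99. Here 26 genes had a correlation above 0.95, and that of Maf was 0.32. With 6 samples from the same arrays, so many genes reach such values that the names are a description.

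Across the series, each array had 48.9% to 50.5% of its probes well above background and none saturated, and the 75th percentile of intensity lay between 411 and 495. Of 10 macrophage markers all passed the filter, with 1 positive and 9 negative differences, a median of -0.14 and none called. Over their 16 tested probes, 6 had an unadjusted limma p under 0.05 (1 higher and 5 lower), beside 12.1% of all probes. The groups did not overlap in 7 of the 16 (1 higher and 6 lower), beside 19.4%. Of the markers of other cells, 9 of 9 stromal, 6 of 6 neutrophil, 3 of 5 mast cell or basophil, 3 of 5 T cell, 2 of 5 B cell, 1 of 4 erythroid and 1 of 4 hepatocyte genes passed the filter, and none was called. Alb, Ttr and Apoa1 were the hepatocyte genes that did not pass, although the tissue entry is liver. The arrays lay on 1 slide with WT in 1 row and c-Maf KO in the other, and the effects of row and genotype therefore cannot be told apart.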

How the data were processed

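The authors' spot intensities came from Agilent's extraction software (Feature Extraction 10.7.3.1, named in the submitters' processing notes), per the file headers with detrending on and background correction off. The flags for spots well above background are the deposited ones, per the file headers. The value table that the authors deposited holds ratios, read from the values as linear ratios to each probe's median over the 6 samples; the treatment of low values is not stated in the sources used here.

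Log2 of the value table was compared, c-Maf KO minus WT, by limma (3.58.1, lmFit and eBayes, run in R 4.3.3) and Benjamini-Hochberg adjustment over 28271 probes that were well above background on at least 2 of 5 arrays. Scanner signals were scaled to the array's 75th percentile and fitted likewise over 5 arrays. The fit was tested on simulated data of 6 samples with 100 changed probes of each size. It called 81% of changes of 1.5 log2 units, 23% of changes of 0.5 log2 units and 7 unchanged probes. The real fit called only 6 of 28271 probes, far fewer than the simulation. The Benjamini-Hochberg cutoff was therefore stricter in the real fit, and these shares are likely too high for it. A probe that was not called is therefore not shown to be unchanged. Genotypes were compared within a probe; mean signal was used across probes only to choose a probe for a gene or the genes to name. The number of arrays limits precision. A bound sets the bright group's mean against, on each array, the probe's own signal or the lowest signal called well above background, whichever is higher. The motif search used the files' probe sequences, and positions are mm9.

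Genes named are every probe of the 9 genes and of Maf, the 5 window genes of largest difference with separate groups, the 3 nearest genes on each side, the 2 brightest genes of each partner list, and the 3 genes most like Wwox and Plcg2; others were chosen after their values were seen. Some genes that this rule takes are not reported here. The members and lists were chosen with earlier results of these data known. The labels state no shared source for same-numbered samples, and the main fits did not pair them. Deviations of same-numbered samples had correlations of -0.0043, -0.044 and 0.081, and those of other pairs ran from -0.070 to 0.075. These values cannot settle whether same-numbered samples share a source. Alternatives were other scalings, filters, variance models, thresholds, window widths, array weights, a replicate block and each replicate left out.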

Additional observations from a re-analysis of the deposited data

How the results depend on the processing

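No neighbour probe and no partner probe was called under any of the alternatives run for them, and the neighbours' lowest adjusted p over these was 0.191, for Wwox probe 3. The count over all probes, 6 in the value table, was 2 with no filter on dim probes, 3 with quantile normalization, 50 with trend and robust options, 11 at an adjusted p under 0.1, and 2 to 31 with 1 replicate left out, with 31 without WT replicate 1. On the scanner arrays it was 7 and became 22 with normexp background correction, 124 with trend and robust options, and 2 to 18 with 1 replicate left out, with 18 without c-Maf KO replicate 2. The replicate block gave 0 calls on the scanner arrays and 7 in the value table. Within 5 Mb, 1 probe (Nudt7) was called with trend and robust options. The median of this window was -0.0345 on the scanner arrays, -0.0204 within 2 Mb, and -0.0328 to 0.0109 with 1 replicate left out. The further Maf probe passed the threshold with array weights (-4.40, adjusted p = 0.0251), on the scanner arrays (-4.74, adjusted p = 0.00115), with trend and robust options (-4.34, adjusted p = 0.0390) and without c-Maf KO replicate 1 (-4.74, adjusted p = 0.000842). Left-out differences of this probe ran from -4.74 to -4.09. The further Maf probe and CB193388 passed the filter through the WT arrays alone. Their sizes and p-values here are therefore fitted values and add nothing to the bounds given above. On the scanner arrays all 3 probes of the Maf locus lost their call under the block (adjusted p = 0.268), and the main Maf probe and CB193388 also when any 1 WT array was left out. With normexp the main Maf probe differed by -3.43, CB193388 by -2.97 and the further Maf probe by -1.496.

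Signs turned for 5 neighbour probes. Wwox probe 4 was 0.0062 with quantile normalization and -0.0573 to 0.056 with 1 replicate left out (-0.0888 to 0.0147 on the scanner arrays). Gcsh probe 1 ran from -0.375 to 0.0942 with 1 replicate left out (-0.42 to 0.0493 on the scanner arrays), and was 0.0493 under the scanner replicate block. With normexp, Wwox probe 5 was -0.0176, Wwox probe 2 was -0.0351 and Plcg2 was 0.0060. Wwox probe 3 kept its sign but ran from -0.653 to -0.329 with 1 replicate left out (-0.611 to -0.0504 on the scanner arrays), and Wwox probe 2 from 0.197 to 0.529 (0.0056 to 0.384). On the scanner arrays with 1 left out, Plcg2 ran from -0.0585 to 0.0187 and Wwox probe 5 from -0.0678 to 0.329. In the value table with 1 replicate left out both kept their sign. Plcg2 ran there from -0.0777 to -0.0045 and Wwox probe 5 from 0.0888 to 0.312. The cause was not tested. Hsd17b2 and Gcsh probe 1 dropped out where all 5 arrays had to be above background. With 2 and 3 arrays, dim neighbours such as Dynlrb2 cannot be resolved.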
